A study of Homo sapiens with 21 samples.

Results

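The proteasome genes were followed across 21 RNA sequencing libraries of OCI-AML5, a human acute myeloid leukemia cell line, treated with UM171, a small molecule agonist of hematopoietic stem cell self-renewal. Members were the protein-coding genes whose symbol starts with PSMA, PSMB, PSMC, PSMD, PSME, PSMF or PSMG and ends in a number, together with POMP. The rule used names and no measured value, and it gave 49 genes of 19683 protein-coding genes. There were 7 groups of 3 libraries. In control cells these were DMSO, the solvent, and UM171 for 6 h, 24 h, 48 h and 72 h at a labelled dose of 500 nM. The study's text gives a lower dose for exposures of this kind, so the dose is uncertain. In cells carrying sgEPCR, a guide RNA against PROCR, the gene of the protein C receptor EPCR, they were DMSO and UM171 for 24 h. The labels call the sgEPCR cells a clone, EPCR null in one field and a knockdown in another, while the study describes several independent clones, so whether a library number stands for 1 clone is not given. The labels put the control DMSO libraries at 72 h and the sgEPCR DMSO libraries at 24 h, and a supplementary table of the study lists the control libraries under another time and as a control guide. Only UM171 at 72 h therefore had a control of the same labelled time in control cells, and in all other comparisons with these DMSO libraries time in culture and treatment, or time and genotype, cannot be told apart. Nothing in the labels says that libraries of a group came from separate cultures, so p-values measure the spread between libraries, which may be technical.

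Libraries held between 24.3 and 51.5 M counts. Mitochondrial genes took 7.73% to 13.5% of the counts in 19 libraries, but 35.9% in sgEPCR DMSO library 1 and 32.2% in sgEPCR UM171 library 2. These libraries also had the lowest summed TPM of the members, 3872 and 3640, against 4730 to 9303 in the others. Results on sgEPCR cells are therefore given with and without both, except those under other scalings or tools, which are given with all libraries. PROCR ranged from 3.37 to 4.30 TPM in control DMSO and from 2.30 to 4.53 TPM in sgEPCR DMSO, which overlap. It was at 48.48 to 48.5 TPM in control cells after 24 h of UM171 and from 4.23 to 8.94 TPM in sgEPCR cells, which do not. Of 8 myeloid markers, PTPRC, CD33, SPI1 and LYZ averaged from 162 to 717 TPM in control DMSO, while MPO averaged 2.69 TPM and ANPEP 0.173 TPM. The summed level of 8 markers of other lineages was 0.4 to 1.2 TPM in control DMSO, 6.09 to 8.4 TPM at 24 h and 16.06 to 19.79 TPM at 72 h, nearly all of it CD3D, with MS4A1 at 0 in every library, while that of the myeloid markers was 1520 to 1611 TPM, 1874 to 2025 TPM and 2240 to 2438 TPM. The myeloid markers split, with 4 higher and 4 lower at 24 h and 3 and 4 at 72 h, where LYZ had a log2 change of 1.19 and SPI1 of -1.002. Their part in the results was not tested.

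The proteasome is the protease that degrades proteins tagged with ubiquitin. Its 20S core is a barrel of alpha and beta rings, in which PSMB6, PSMB7 and PSMB5 carry the caspase-like, trypsin-like and chymotrypsin-like active sites, and the 19S particle at its ends recognizes, unfolds and feeds in the substrate. In the immunoproteasome PSMB9, PSMB10 and PSMB8 take the places of these catalytic subunits; it is induced by interferon, is abundant in blood cells and favors peptides that bind MHC class I. Transcription of the constitutive genes is coordinated, in part by NFE2L1, a factor that the cell activates when proteasome capacity falls short.

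All but 2 members were expressed in control DMSO. PSMA8, the testis alpha subunit, and PSMB11, the thymus catalytic subunit, did not exceed 1 and 2 counts in any library and were not tested. The other 47 passed the filter on low counts, and none of them had fewer than 128 counts in a library. Levels in TPM, a unit that corrects for transcript length and depth, ran in control DMSO from a mean of 10.9 TPM for PSMB9 to 317 TPM for the structural beta subunit PSMB4, with a median of 107 TPM. The alpha subunits spanned 105 TPM for PSMA2 to 251 TPM for PSMA4, and the 19S ATPases 81.8 TPM for PSMC4 to 194 TPM for PSMC1. At the low end of the assembly factors, PSMG4 averaged 18.0 TPM. Genes of one particle thus differed in transcript level, in the structural beta ring from 81.0 TPM for PSMB2 to the level of PSMB4.

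At 24 h of UM171 all tested transcripts of the constitutive core and the 19S particle were higher than in DMSO, which is labelled 72 h. All 14 constitutive core genes and all 17 genes of the 19S particle passed the test upward, with a median log2 fold change of 0.83 and 0.735. Of the 47 members tested, 38 were higher and 5 lower at an adjusted p under 0.05 (edgeR quasi-likelihood test, adjusted over 16575 genes), against 34.9% and 34.8% of all genes tested. The members' median log2 change was 0.67, and that of all genes was -0.01. Stricter limits, an adjusted p under 0.0001 and more than 2-fold, were met by 4 members, all higher, against 9.03% of all genes in that direction and 4.7% in the other. These were PSMB2, PSMD1, PSMB6 and PSMC3, so most members rose by less than 2-fold.

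**Figure D1:**
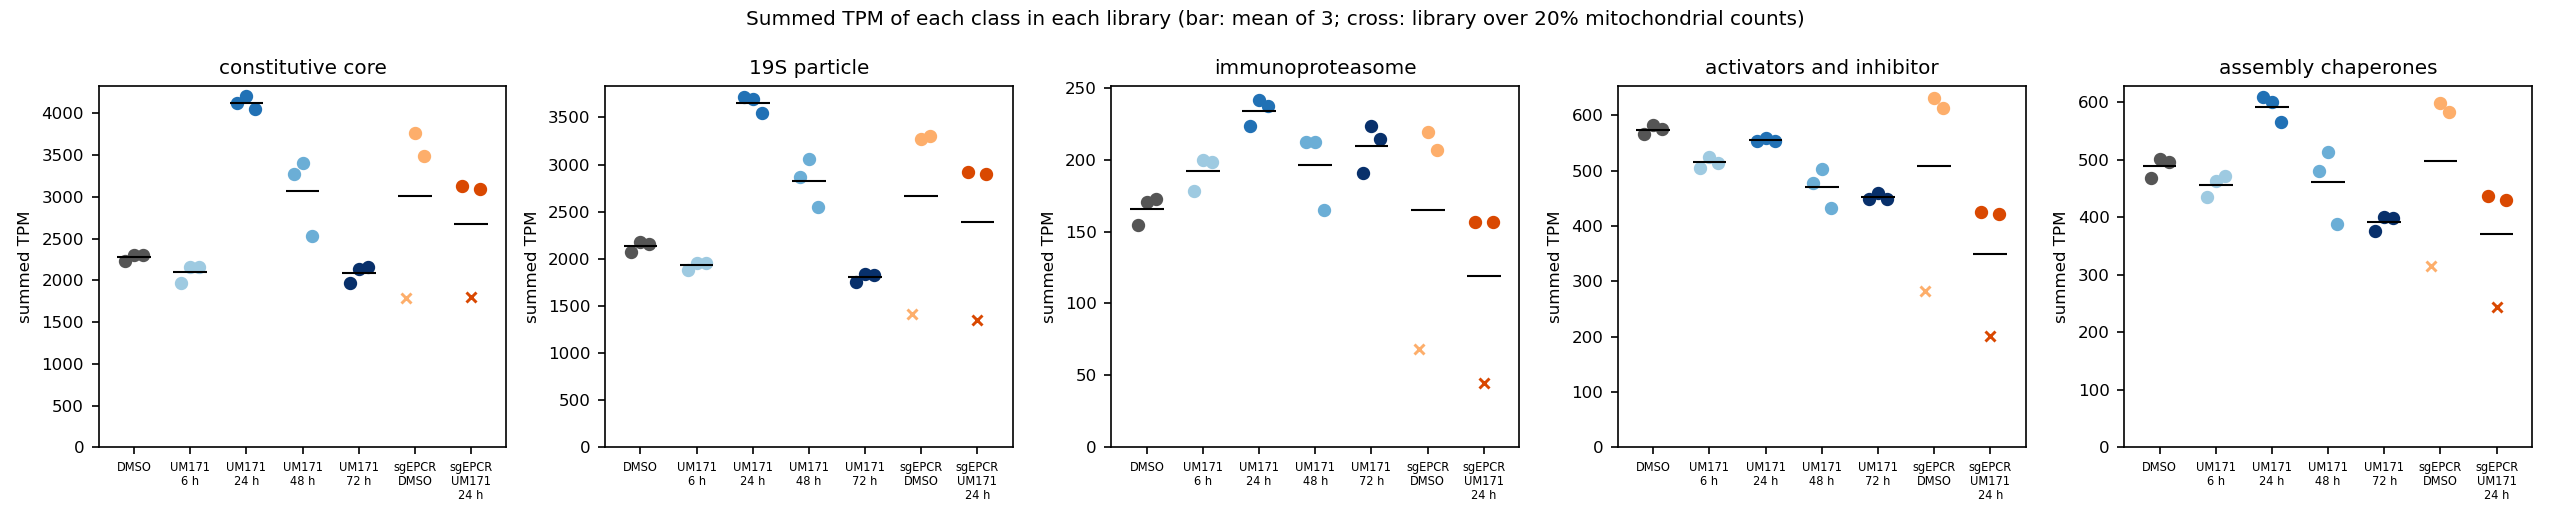
Summed TPM of the members of each class (vertical axes) in every library of the 7 groups (horizontal axes). Points are libraries, bars are means of 3, and crosses mark the 2 libraries with over 20% mitochondrial counts. The constitutive core and the 19S particle sum to 4047 to 4207 TPM and 3545 to 3715 TPM at 24 h of UM171, above all DMSO libraries, and the 2 sgEPCR DMSO libraries shown as circles reach 3484 and 3765 TPM and 3269 and 3302 TPM.

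The rise was seen in the summed TPM of each particle. The constitutive core summed to 2236, 2306 and 2307 TPM in DMSO and to 4127, 4207 and 4047 TPM at 24 h, 1.81 ± 0.035 times the DMSO mean (SD, n = 3). The 19S particle summed to 2068, 2175 and 2157 TPM in DMSO and to 3715, 3695 and 3545 TPM at 24 h, 1.71 ± 0.0434 times. Neither pair of groups overlapped. The immunoproteasome genes reached 1.41 times, the assembly chaperones 1.21 times and the activators with the inhibitor 0.9675 times their DMSO means. Untreated sgEPCR cells are also labelled 24 h. Their libraries 2 and 3 summed to 3765 and 3484 TPM for the core and to 3269 and 3302 TPM for the 19S particle, between control DMSO and 24 h of UM171, and library 1, of high mitochondrial share, to 1786 and 1420 TPM, below every control DMSO library. Over all members the libraries labelled 24 h summed to between 7009 and 9303 TPM without the 2 libraries named above, those at 48 h to 6068 to 7687 TPM, those at 72 h to 4730 to 5734 TPM and those at 6 h to 4971 to 5307 TPM. The part of labelled time in the rise was not tested, since no control DMSO library is labelled 24 h.

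PSMB2, the structural beta 4 subunit, changed most among all members at 24 h. It measured 82.3, 75.9 and 84.7 TPM in DMSO and 200.1, 219 and 221 TPM at 24 h, which did not overlap. Its log2 fold change was 1.34 (SE 0.0381, adjusted p = 1.5e-14). In the same class PSMB4, the beta 7 subunit, had the smallest change, from 317, 313 and 320 TPM to 547, 571 and 555 TPM, a log2 change of 0.79 (SE 0.0546). All 4 structural beta genes therefore rose, and the 2 others, PSMB1 and PSMB3, had log2 changes of 0.92 and 0.86.

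Among the alpha subunits, which form the gated outer rings of the core, PSMA1 rose most and PSMA5 least in counts. PSMA1 measured 219, 243 and 232 TPM in DMSO and 432.5, 417 and 398 TPM at 24 h, a log2 change of 0.96 (SE 0.0664, adjusted p = 9.6e-10). PSMA5 measured 115, 128 and 120.2 TPM and then 174, 163 and 152 TPM, a log2 change of 0.43 (SE 0.0663, adjusted p = 1.7e-05). All 7 tested alpha genes were higher, with a median of 0.77. In TPM the order at the top differed, with 1.87 times DMSO for PSMA4, 1.805 times for PSMA2 and 1.796 times for PSMA1, whose mean effective length went from 938 to 1043 bases.

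In the 19S particle the ATPases PSMC1 to PSMC6 form the ring that unfolds the substrate. PSMC3 rose most of the 6, from 124, 135 and 132 TPM to 274, 269 and 278 TPM, a log2 change of 1.06 (SE 0.0357, adjusted p = 1e-13), with no overlap. PSMC4 rose least, from 84, 81.8 and 79.7 TPM to 123, 129 and 127 TPM, a log2 change of 0.59 (SE 0.0419). All 6 were higher. The scaffold subunit PSMD1 went from 88.9, 91.3 and 103 TPM to 208, 216 and 209 TPM, a log2 change of 1.12 (SE 0.0339, adjusted p = 3.1e-14). The smallest change among the 11 non-ATPase genes was that of the lid subunit PSMD12, from 95.0, 96.8 and 97.0 TPM to 132, 124 and 120.1 TPM, a log2 change of 0.37 (SE 0.0476), again without overlap. The deubiquitinase PSMD14, which removes ubiquitin from the substrate, measured 70.7, 73.8 and 72.8 TPM in DMSO and 142, 137 and 126 TPM at 24 h, a log2 change of 0.86 (SE 0.0519). The ubiquitin receptor PSMD4 rose by 0.57 (SE 0.0365).

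**Figure D2:**
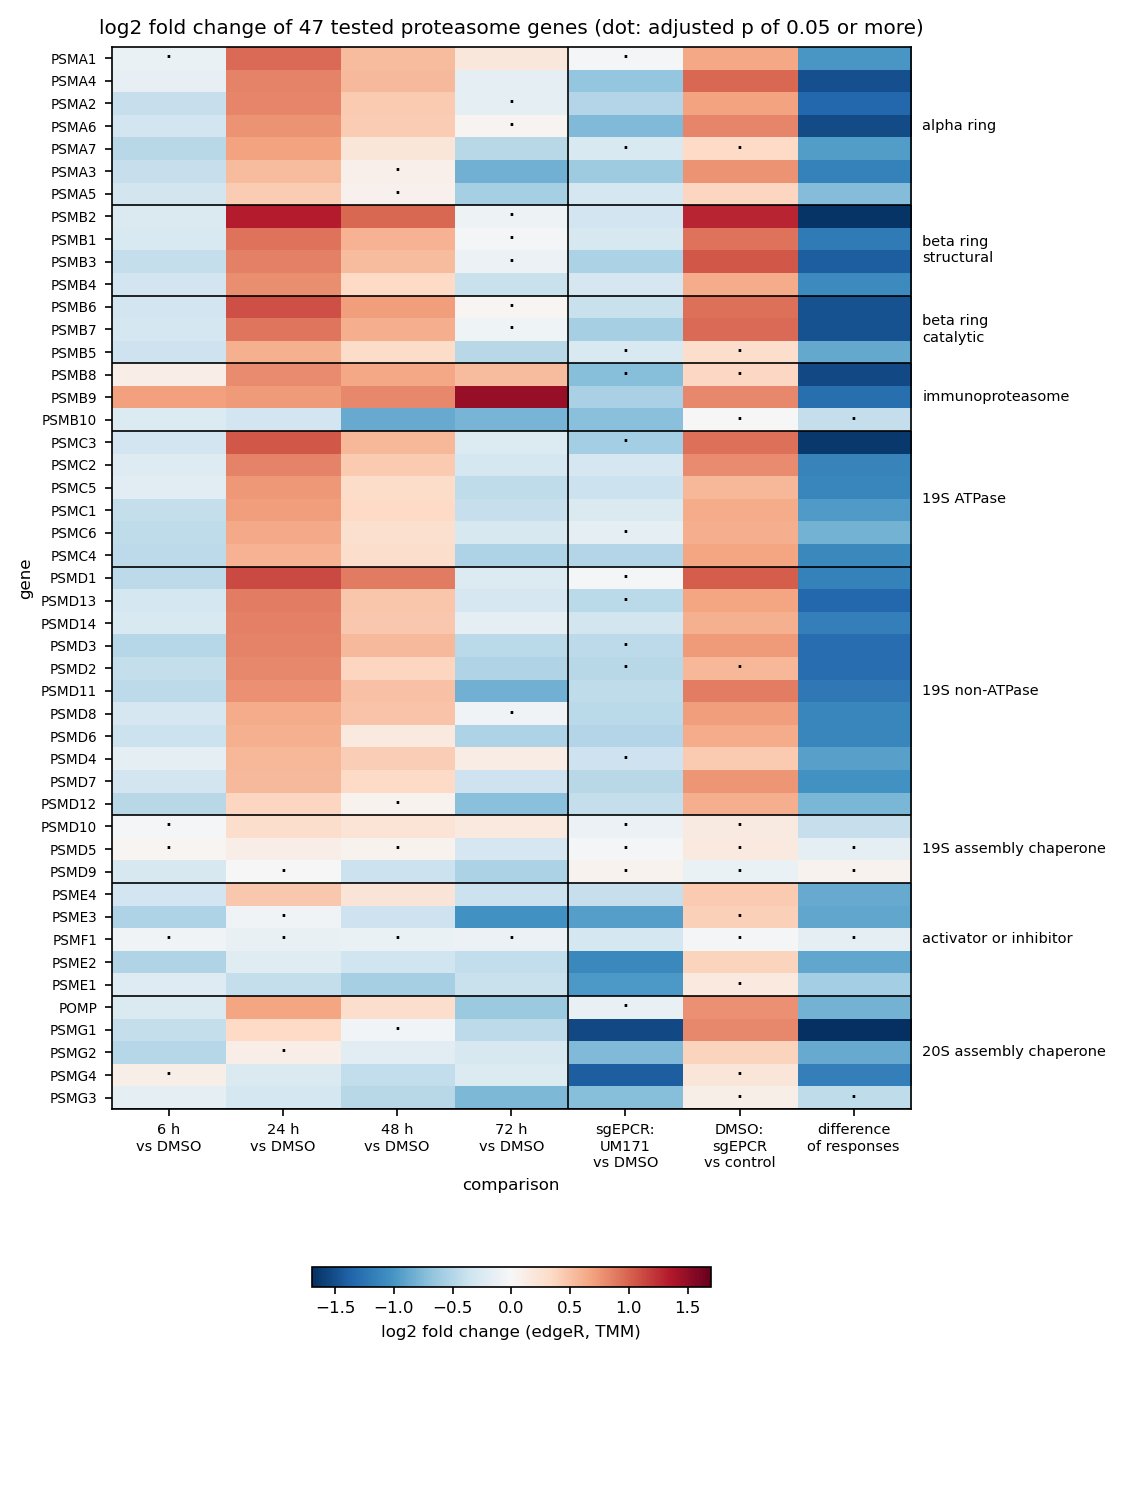
Log2 fold changes of the 47 tested proteasome genes (vertical axis, grouped by class and ordered by the 24 h value) in 7 comparisons (horizontal axis). The color gives the log2 fold change from edgeR, the first 4 columns from the 15 libraries of the time course and the last 3 from the 12 libraries of the genotype comparison, and a dot marks an adjusted p of 0.05 or more. All core and 19S genes are higher at 24 h, and PSMB9 is the one member with a log2 change above 1 at 72 h.

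Promoters are shown for 4 members with different patterns, namely PSMB2, with the largest 24 h change, PSMB3, a structural subunit that rose with it, PSMB9, the one tested member over 2-fold higher at 72 h, and PSMB10, which fell. RefSeq (GRCh38.p14) promoter windows were at hand for 43 of the 49 members, 52 windows in all, and the 250 bases before each start were searched on both strands for 4 motifs. The antioxidant response element core TGACNNNGC, a site class bound by NFE2L1 and related factors, was in 13 of the 52 windows, 25% against 10.9% of 35116 windows of all genes. The interferon-stimulated response element core, 2 runs of GAAA parted by 2 bases, was in 5, 9.62% against 3.02%, and the gamma-activated site TTCNNNGAA in 7, 13.5% against 6.57%. The CCAAT box CCAAT was in 19, 36.5% against 32.0%, and matches of different motifs may overlap. Of the members with a window, 33 were higher at 24 h, and the other 10 include the untested PSMA8 and PSMB11. By gene, the antioxidant response element core was in 9 of the 33 and in 4 of the 10. The CCAAT box was in 17 and 2, with PSMB11 among the 2. PSMB10, PSME2 and PSMG4, lower at 24 h in counts, held the interferon-stimulated core, as did PSMA4 and PSMB4, which were higher. A match describes these letters only and is not a site. Capitals mark every match. The windows lie at chr1:35641527-35641776 on the minus strand for PSMB2, chr17:38752491-38752740 on the plus strand for PSMB3, chr6:32853942-32854191 on the plus strand for PSMB9 and chr16:67936851-67937100 on the minus strand for PSMB10.
PSMB2: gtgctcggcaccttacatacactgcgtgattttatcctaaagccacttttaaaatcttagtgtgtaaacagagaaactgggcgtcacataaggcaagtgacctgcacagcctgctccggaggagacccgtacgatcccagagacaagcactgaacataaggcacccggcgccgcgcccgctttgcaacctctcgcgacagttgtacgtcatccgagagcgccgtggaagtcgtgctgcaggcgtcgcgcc
PSMB3: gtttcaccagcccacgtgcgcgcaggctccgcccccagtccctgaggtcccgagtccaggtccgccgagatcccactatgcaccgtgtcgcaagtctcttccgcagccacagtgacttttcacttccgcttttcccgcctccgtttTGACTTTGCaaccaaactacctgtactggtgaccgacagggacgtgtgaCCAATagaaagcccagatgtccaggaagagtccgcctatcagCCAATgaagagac
PSMB9: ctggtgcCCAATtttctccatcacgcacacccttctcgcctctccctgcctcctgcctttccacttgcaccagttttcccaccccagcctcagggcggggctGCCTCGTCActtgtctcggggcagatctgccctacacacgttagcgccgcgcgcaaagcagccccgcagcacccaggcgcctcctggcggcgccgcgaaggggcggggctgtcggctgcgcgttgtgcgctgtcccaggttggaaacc
PSMB10: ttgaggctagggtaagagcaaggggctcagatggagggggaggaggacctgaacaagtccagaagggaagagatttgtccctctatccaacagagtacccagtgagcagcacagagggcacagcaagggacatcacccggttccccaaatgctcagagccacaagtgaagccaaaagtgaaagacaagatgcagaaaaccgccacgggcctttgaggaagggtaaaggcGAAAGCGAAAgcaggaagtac
The PSMB2 window holds none of the 4 motifs, the PSMB3 window has 1 antioxidant response element core and 2 CCAAT boxes, the PSMB9 window 1 antioxidant response element core and 1 CCAAT box, and the PSMB10 window 1 interferon-stimulated core.

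The 3 constitutive active-site genes rose at 24 h to different extents. PSMB6, the beta 1 subunit, measured 104, 108 and 105 TPM in DMSO and 228, 234 and 231 TPM at 24 h, a log2 change of 1.09 (SE 0.0420, adjusted p = 5.4e-13). PSMB7, the beta 2 subunit, measured 129.8, 136 and 134 TPM and then 260.5, 257 and 249.7 TPM, a log2 change of 0.91 (SE 0.0409, adjusted p = 4.1e-12). PSMB5, the beta 5 subunit and the main target of the drug bortezomib, measured 99.96, 102 and 109 TPM and then 164, 174 and 158 TPM, a log2 change of 0.61 (SE 0.0572, adjusted p = 4.8e-08). No library at 24 h overlapped DMSO for any of the 3.

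Their immunoproteasome counterparts split. PSMB8, the beta 5i subunit, measured 84.5, 92.7 and 94.8 TPM in DMSO and 157, 165 and 159.7 TPM at 24 h, a log2 change of 0.81 (SE 0.0478, adjusted p = 1.4e-10). PSMB9, the beta 1i subunit, measured 9.74, 11.2 and 11.7 TPM and then 17.4, 19.7 and 19.3 TPM, a log2 change of 0.72 (SE 0.101, adjusted p = 6.1e-06). PSMB10, the beta 2i subunit, measured 60.1, 66.3 and 65.8 TPM and then 48.2, 56.4 and 57.9 TPM, a log2 change of -0.33 (SE 0.0704, adjusted p = 0.00055). PSMB8 and PSMB9 were thus higher in all 3 libraries at 24 h and PSMB10 lower in all 3. PSMB8 has an antisense neighbor, PSMB8-AS1, which averaged 21.3 TPM in DMSO and 36.9 TPM at 24 h; the library kit marks strand, but whether counting used it is not given in the sources used here.

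**Figure D3:**
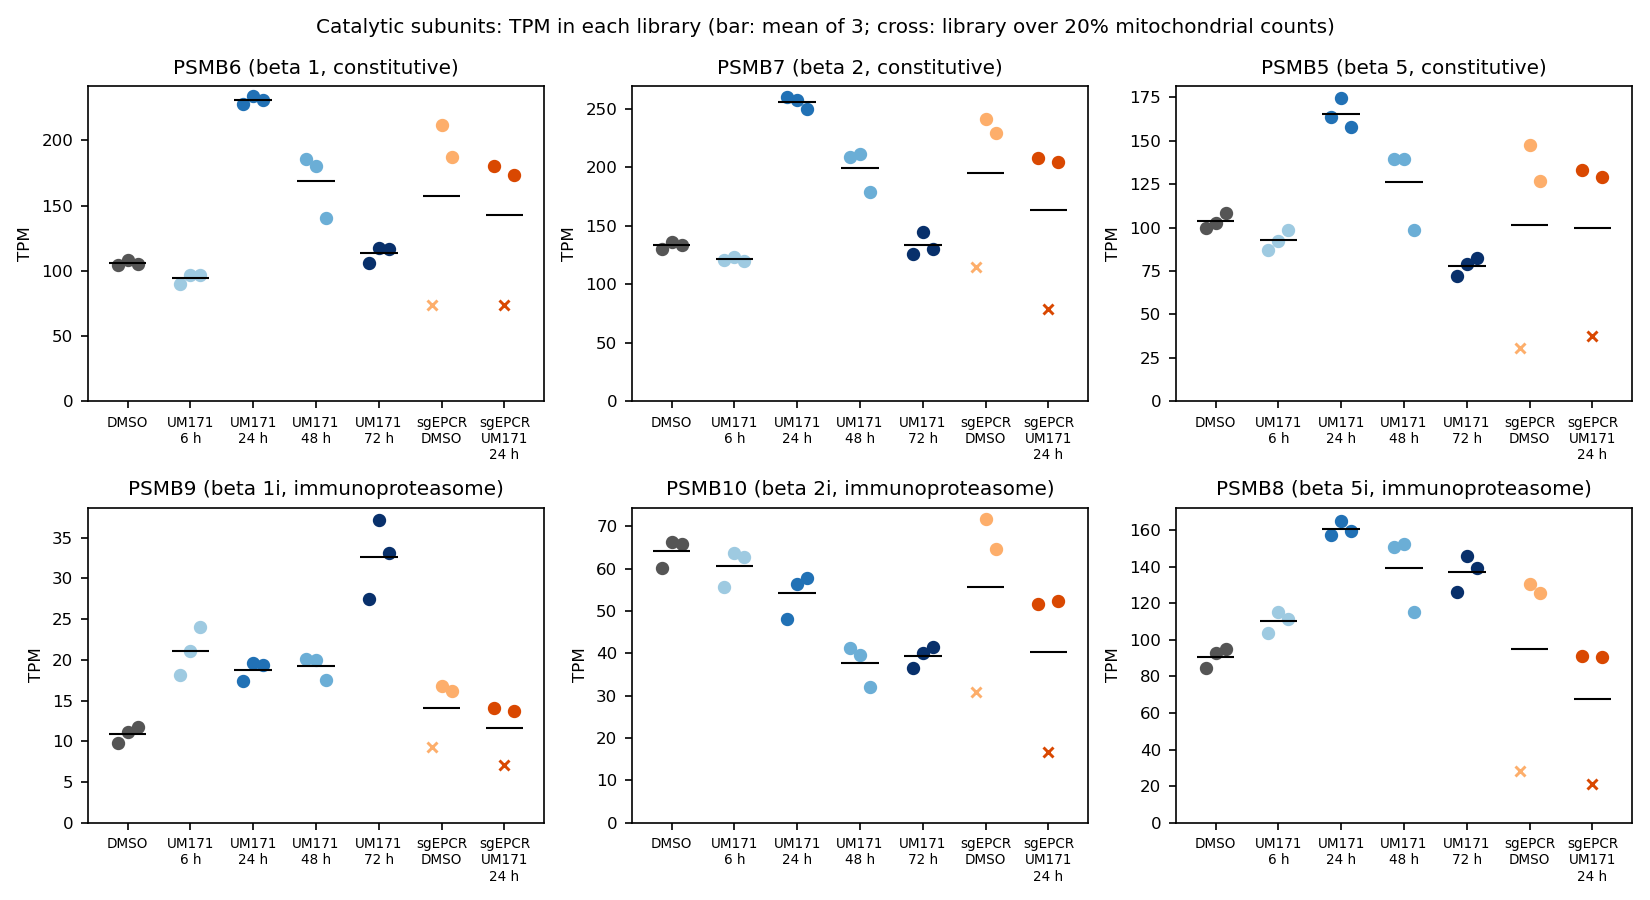
TPM of the 3 constitutive catalytic subunits (upper row) and of the immunoproteasome subunits at the same positions (lower row) in every library. Points are libraries, bars are means of 3, and crosses mark the 2 libraries with over 20% mitochondrial counts. PSMB5, PSMB6 and PSMB7 peak at 24 h, PSMB9 is highest at 72 h with 27.5 to 37.2 TPM, and PSMB10 is lowest at 48 h and 72 h among the control groups.

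The members' median was lower at 48 h and below zero at 72 h. At 48 h, 33 members were higher and 8 lower, against 37.1% and 35% of all genes, with a median log2 change of 0.33. None passed the stricter limits, against 11.7% and 4.67% of all genes. PSMB2 still led, with 170.0, 157 and 157 TPM and a log2 change of 0.98 (SE 0.038), followed by PSMD1 with 0.89 (SE 0.0338). Library 3 of this group, which had the highest mitochondrial share outside the 2 libraries above, 13.5%, summed to 6068 TPM over all members against 7319 and 7687 TPM in the other 2, and its part in the smaller median was not tested.

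At 72 h, where the labelled times match, 5 members were higher and 33 lower than in DMSO, against 38.8% and 36.8% of all genes. The members' median log2 change was -0.30. The higher ones were PSMB9, PSMB8, PSMA1, PSMD10 and PSMD4. The 19S particle had 15 of 17 genes lower, for example the lid subunit PSMD11 with a log2 change of -0.82 (SE 0.034) and PSMD12 with -0.71 (SE 0.0487). The constitutive core had 6 of 14 lower and 1 higher. PSMB2 measured 81.2, 79.3 and 80.0 TPM, within its DMSO range, and PSMB6 and PSMB7 did not pass the test, with log2 changes of 0.03 and -0.07. PSMB5 fell, to 72.15, 78.85 and 82.4 TPM, all below DMSO, a log2 change of -0.47 (SE 0.0587, adjusted p = 1.3e-06). The alpha subunit PSMA3 had the largest fall in the core, -0.82 (SE 0.0567). Past the stricter limits were 1 member higher, PSMB9, and 1 lower, PSME3, against 15% and 5.8% of all genes.

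Set directly against 24 h, 43 members were lower at 72 h and 1 was higher, PSMB9, against 33.4% and 36.4% of all genes. The median log2 change was -0.97 over the members and 0.04 over all genes, and 21 members fell by more than 2-fold at the stricter limits, against 3.04% of all genes (8.89% rose). Of these, 13 were 19S genes and 7 were core genes, and the other was POMP. PSMD11 fell by 1.60 and PSMB2 by 1.42 on the log2 scale. PSME1, PSMF1 and PSMG4 did not pass, with log2 changes between 0.0177 and 0.025.

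At 6 h most members that passed were lower, and their number depended on the scaling. With TMM scaling 2 members were higher, PSMB9 and PSMB8, and 40 lower, against 31.8% and 30.3% of all genes, with a median log2 change of -0.32. None passed the stricter limits, against 6.78% and 0.247% of all genes. PSMB8 passed narrowly, with a log2 change of 0.12 (adjusted p = 0.049), and leaving out any of 12 single libraries gave 1 higher member in place of 2. Scaling by total counts gave 6 members higher and 22 lower, against 44.8% and 14.7%, and shifted the median of all genes from 0.02 to 0.20. The largest falls with TMM were those of PSME3, -0.52 (SE 0.0535), PSME2, -0.50 (SE 0.0571), and PSMG2, -0.49 (SE 0.058). In TPM the sums were 0.919 ± 0.0492 times DMSO for the core and 0.905 ± 0.0189 times for the 19S particle. PSMB9 rose most: it measured 18.2, 21.1 and 24.1 TPM, all above DMSO, a log2 change of 0.69 (SE 0.102, adjusted p = 1.7e-05). Next in mean TPM were PSMG4, at 1.435 times DMSO, and PSMB8, at 1.214 times. In counts PSMG4 did not pass, with a log2 change of 0.10 (SE 0.059, adjusted p = 0.15).

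The level of PSMB9 was highest at the last time. It measured 27.5, 37.2 and 33.1 TPM at 72 h, all above every library of the other control groups, a log2 change of 1.48 over DMSO (SE 0.0974, adjusted p = 3e-10) and of 0.76 over 24 h (SE 0.0914, adjusted p = 1.2e-06). PSMB8 measured 126, 146 and 139 TPM at 72 h, above DMSO and below 24 h, a log2 change of 0.53 over DMSO (SE 0.048), while PSMB8-AS1 averaged 44.9 TPM. PSMB10 measured 36.65, 40.2 and 41.5 TPM at 72 h, all below DMSO, a log2 change of -0.78 (SE 0.0720, adjusted p = 2.5e-08), and 41.2, 39.6 and 32.1 TPM at 48 h.

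The share of the immunoproteasome transcript at each catalytic position, PSMB9 of PSMB9 and PSMB6 for example, sets these levels side by side within a library. The shares were computed from TPM. An exact permutation test (two-sided) of 3 libraries against 3 has 0.1 as its smallest p, and after adjustment over the 21 comparisons no p was under 0.15. The beta 1 share of the DMSO libraries was 8.53%, 9.39% and 10.0%. At 6 h it was 16.85%, 17.85% and 19.9%, at 24 h 7.105%, 7.76% and 7.73%, and at 72 h 20.6%, 24.1% and 22.1%. The 6 h and 72 h libraries lay above DMSO and the 24 h libraries below it (exact p = 0.1 for each, adjusted p = 0.15). At 48 h the share was 10.3% ± 0.708 (SD, n = 3), which overlapped DMSO. The beta 5 share of DMSO was 46.6% ± 0.846. It was 54.3% ± 1.25 after 6 h, 49.3% ± 0.870 after 24 h, 52.65% ± 1.01 after 48 h and 63.8% ± 1.02 after 72 h, each without overlap with DMSO. The beta 2 and beta 5 shares both rose from 48 h to 72 h. Relative to DMSO, the beta 2 share was, from 24 h on, opposite in direction to the beta 5 share. It was 32.45% ± 0.708 in DMSO and 33.3% ± 1.58 after 6 h of UM171, then 17.5% ± 1.66 (24 h), 15.8% ± 0.625 (48 h) and 22.8% ± 1.19 (72 h), and the last 3 groups lay below all DMSO libraries. The 3 immunoproteasome genes therefore did not keep a common ratio to the subunits they replace.

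**Figure D4:**
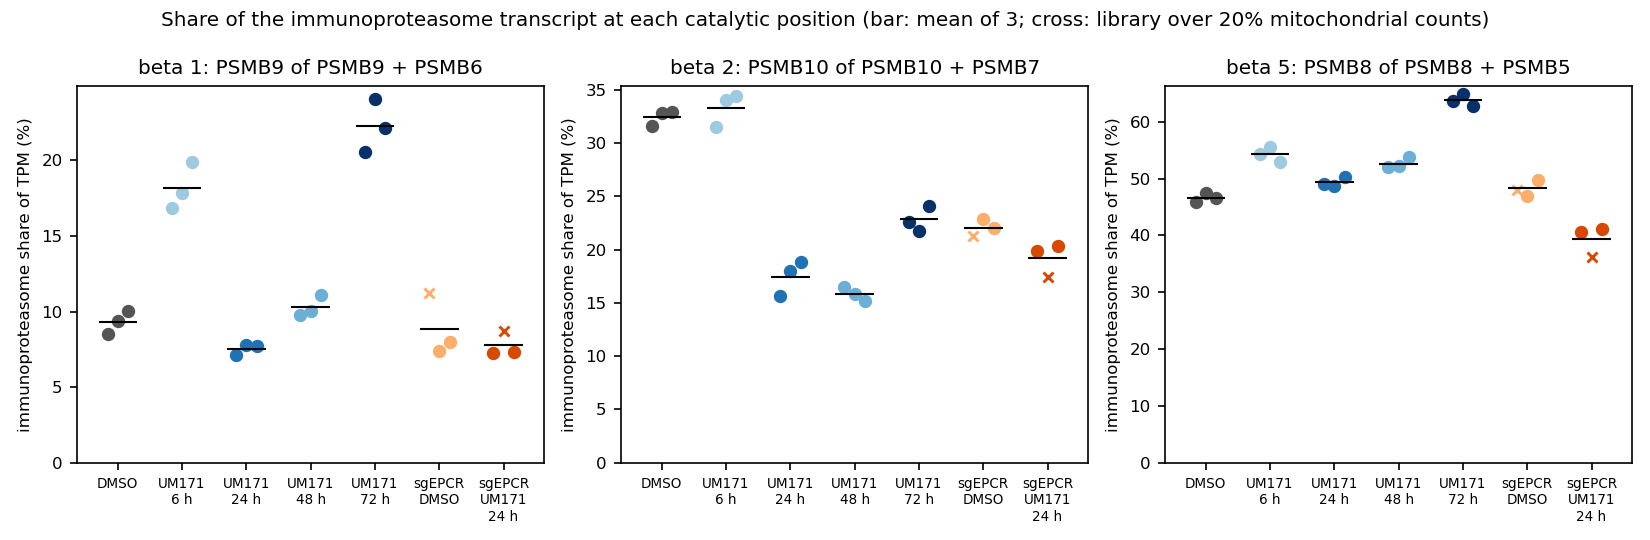
Immunoproteasome share of the TPM at the beta 1, beta 2 and beta 5 positions (vertical axes, percent) in every library of the 7 groups (horizontal axes). Points are libraries, bars are means of 3, and crosses mark the 2 libraries with over 20% mitochondrial counts. The beta 1 share is 20.6% to 24.1% at 72 h against 8.53% to 10.0% in DMSO, and the beta 2 share is below DMSO from 24 h on.

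The activators behaved apart from the core. PSME1 and PSME2 encode PA28 alpha and beta, the cap that interferon induces and that opens the core without ubiquitin. PSME1 measured 122, 158 and 142 TPM in DMSO and 110.0, 104.4 and 104.5 TPM at 24 h, a log2 change of -0.40 (SE 0.052, adjusted p = 2.4e-06), with no overlap. PSME2 measured 106, 103 and 102 TPM and then 90.3, 98.5 and 96.1 TPM, a log2 change of -0.21 (SE 0.0563, adjusted p = 0.0034), also without overlap. In counts with TMM scaling both passed the test downward at every time, though at 6 h the log2 ratio of the mean TPM of PSME1 was 0.0193. PSME3, the nuclear PA28 gamma, had a log2 change of -0.06 at 24 h (SE 0.0531, adjusted p = 0.3) and fell to 93.5, 95.1 and 92.1 TPM at 72 h from 192, 185 and 186 TPM in DMSO, a log2 change of -1.03 (SE 0.0541, adjusted p = 1.5e-11), about 2-fold with no overlap. PSME4, the activator PA200, was the one of the 5 that passed upward in counts at 24 h, by 0.45 (SE 0.0395). It went from 35.0, 35.3 and 40.2 TPM to 50.9, 53.1 and 54.6 TPM. For PSMF1, the inhibitor PI31, the scales differed. At 24 h its log2 change in counts was -0.13 (SE 0.0579, adjusted p = 0.053) while the log2 ratio of its mean TPM was 0.11. At 72 h these were -0.11 (SE 0.0579, adjusted p = 0.11) and 0.30. Its mean effective length went from 1323 bases in DMSO to 1142 bases at 24 h and 1051 bases at 72 h.

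The assembly factors had no common direction at 24 h. POMP, which helps the half-made core mature, measured 67.5, 76.5 and 72.5 TPM in DMSO and 124.5, 119.6 and 108 TPM at 24 h, a log2 change of 0.67 (SE 0.0787, adjusted p = 8.5e-07), with no overlap, and 44.5, 49.5 and 52.9 TPM at 72 h, below DMSO, a log2 change of -0.63 (SE 0.0816). PSMG1 rose at 24 h by 0.35 (SE 0.0416), while its partner PSMG2 had a log2 change of 0.11 (SE 0.0567, adjusted p = 0.1). PSMG3 fell by 0.29 on the log2 scale, from 32.9, 38.4 and 36.85 TPM to 31.65, 32.0 and 31.1 TPM. PSMG4 fell by 0.25 in counts, but its TPM was higher, 20.4, 22.1 and 21.2 against 17.9, 17.8 and 18.3 in DMSO, and its mean effective length went from 1232 to 905 bases, so its direction depends on whether length is corrected. Among the chaperones of the 19S base, PSMD10 (gankyrin) rose by 0.30 (SE 0.0521), from 27.4, 27.9 and 29.4 TPM to 36.4, 35.1 and 33.5 TPM, and PSMD5 by 0.12 (SE 0.0368), and PSMD9 had a log2 change of -0.01 (adjusted p = 0.91), with 74.2, 82.5 and 85.3 TPM against 84.6, 77.1 and 79.1 TPM.

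In sgEPCR cells UM171 was followed by lower, not higher, proteasome transcripts. None of the 47 members was higher and 32 were lower at 24 h than in the sgEPCR DMSO libraries, against 27% and 25.1% of all genes, with a median log2 change of -0.44. Without the 2 libraries of high mitochondrial share, 0 were higher and 44 lower, against 34.5% and 36.4%, with a median of -0.40. By class, 11 of 14 core genes, 10 of 17 19S genes, 5 of 5 activators and inhibitor, 4 of 8 assembly chaperones and 2 of 3 immunoproteasome genes were lower, and 14, 16, 5, 6 and 3 without both. No member was higher at an unadjusted p under 0.05 in the main edgeR fit, or at an adjusted p under 0.05 in DESeq2 or limma. With offsets for GC content, chosen after seeing the data, a member was higher. The number of lower members was 21 with upper quartile scaling, 11 with total counts and 1 with limma on log2(TPM + 1), which changes the unit, the filter and the test as well. The median of all genes moved from -0.01 to 0.10, 0.16 and 0.13.

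The levels in single libraries spread widely. PSMB2 measured 119, 177 and 163.5 TPM in sgEPCR DMSO libraries 1, 2 and 3 and 161, 139 and 160.05 TPM in sgEPCR UM171 libraries 1, 2 and 3. PSMB6 measured 73.5, 212 and 187 TPM and then 180.0, 74.0 and 173 TPM, and PSMB5 30.7, 147 and 127 TPM and then 133, 37.4 and 129 TPM. In PSMB5 and PSMB6 the library of high mitochondrial share was far below the other 2 of its group, and the groups overlapped. Without both libraries they still overlapped for PSMB5 but not for PSMB6. PSMB2 had a log2 change of -0.32 with all libraries and of -0.36 without both (SE 0.0335, adjusted p = 2.1e-07). PSMB6 had a log2 change of -0.38 with all libraries (SE 0.105, adjusted p = 0.01) and of -0.38 without both (SE 0.0481, adjusted p = 6.3e-06). PSMB5 had a log2 change of -0.26 (SE 0.214, adjusted p = 0.34) and of -0.30 without both (SE 0.055, adjusted p = 0.00023).

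The largest falls in sgEPCR cells were not in the core. PSMG1 measured 132, 193 and 198 TPM in sgEPCR DMSO and 76.5, 59.55 and 75.2 TPM after UM171, with no overlap, a log2 change of -1.53 (SE 0.176, adjusted p = 3.4e-05). PSMG4 had a log2 change of -1.41 (SE 0.102, adjusted p = 1.1e-06) and PSME2 of -1.09 (SE 0.109, adjusted p = 1.2e-05). Without both libraries the values were -1.55, -1.32 and -1.08. These were all 3 members past the stricter limits, which 3.33% of all genes passed downward and 6.99% upward, and 5.72% and 9.98% without both. PSME1 fell by 0.98 on the log2 scale (SE 0.114) and by 0.89 without both (SE 0.0501). PSMB8 measured 28.4, 130.3 and 126 TPM in sgEPCR DMSO and 91.0, 21.3 and 90.4 TPM after UM171. It had a log2 change of -0.72 (SE 0.306, adjusted p = 0.071), and of -0.70 without both (SE 0.0434, adjusted p = 2.9e-09), and PSMB9 one of -0.55 (SE 0.117, adjusted p = 0.0022), and of -0.45 without both. The beta 5 share was 48.1%, 46.9% and 49.8% in sgEPCR DMSO and 40.6%, 36.25% and 41.15% after UM171, with no overlap and a mean difference of -8.94 points (exact p = 0.1), or -7.495 points without both libraries.

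In DMSO the proteasome genes were higher in sgEPCR than in control cells, with labelled times of 24 h and 72 h. Of 47 members 34 were higher and 0 lower, against 17.4% and 16.3% of all genes, with a median log2 difference of 0.63. Without both libraries 43 were higher and 0 lower, against 30.3% and 30%, with the same median to 2 decimals. Scaling by total counts gave 14 and limma 2 higher members, and moved the median of all genes from 0.00 to -0.25 and -0.36. At the stricter limits 2 members, PSMB2 and PSMD1, were higher, against 1.43% of all genes upward and 1.41% downward. Without both libraries 4 were higher, PSMB6 and PSMC3 as well, and 0 lower, against 3.11% and 3.4%. PSMB2 differed most, by 1.30 (SE 0.111, adjusted p = 1.4e-05), and by 1.202 without both (SE 0.0308). PSMD1 differed by 1.03 (SE 0.0617) and PSMB3 by 1.05 (SE 0.185), and by 1.00 and 0.84 without both. The beta 2 share was 21.3%, 22.9% and 22.0% in sgEPCR DMSO, below the 31.6% to 32.9% of control DMSO (exact p = 0.1), and PSMB10 itself had a log2 difference of -0.01 (SE 0.266, adjusted p = 0.98). Without both libraries PSMB10 passed as higher, with 0.15 (SE 0.0614, adjusted p = 0.045). The 24 h response of control cells was measured against the same control DMSO libraries, and gave 1.34 for PSMB2 and 1.12 for PSMD1. No member was lower at an unadjusted p under 0.05 in edgeR, or at an adjusted p under 0.05 in DESeq2 or limma. Genotype, clone and labelled time cannot be told apart here.

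With UM171 for 24 h in both, where the labelled times match, 0 members were higher and 34 lower in sgEPCR than in control cells, against 20.8% and 22.2% of all genes, with a median log2 difference of -0.43. Without both libraries 0 were higher and 44 lower, against 32.4% and 35.9%. No member was higher at an unadjusted p under 0.05 in edgeR, or at an adjusted p under 0.05 in DESeq2 or limma, and the number lower was 18 with total counts and 3 with limma. With all libraries none passed the stricter limits, against 2.67% upward and 1.79% downward, and without both PSMG1 was lower and none higher, against 3.78% and 6.09%. PSMB8 differed most with all libraries, by -1.18 (SE 0.308, adjusted p = 0.01), and by -0.89 without both (SE 0.04), and PSMG1 by -1.07 (SE 0.174) and -1.28 (SE 0.0493). PSMD1 had a log2 difference of -0.12 (SE 0.061, adjusted p = 0.14) and of -0.15 without both (SE 0.0339, adjusted p = 0.0014).

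The difference between the 2 responses was tested as the interaction of genotype and treatment. The UM171 response was lower in sgEPCR cells for 42 of 47 members and higher for 0, against 23.1% and 21.9% of all genes, with a median of -1.10 on the log2 scale. At the stricter limits 14 members were lower and 0 higher, against 4.17% and 3.6% of all genes. No member was higher at an unadjusted p under 0.05 in the main edgeR fit or with DESeq2 or limma, and limma gave 5 lower. With offsets for GC content a member was higher. Without both libraries 45 were lower, against 35.6%, and 0 higher, against 33.6%. At the stricter limits 26 were lower and 0 higher, against 9.79% and 9.28%. PSMG1 had the largest difference, -1.88 (SE 0.245, adjusted p = 0.00013), followed by PSMB2 with -1.67 (SE 0.156, adjusted p = 1.3e-05) and PSMC3 with -1.64 (SE 0.316, adjusted p = 0.0016). Without both libraries these were -1.89, -1.701 and -1.52. The 5 members that did not pass were PSMB10, PSMD5, PSMD9, PSMF1 and PSMG3, of which PSMD9 and PSMF1 did not pass without both either. The control response sets libraries labelled 24 h against libraries labelled 72 h and the sgEPCR response sets 24 h against 24 h, so genotype and labelled time cannot be told apart in this difference.

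**Figure D5:**
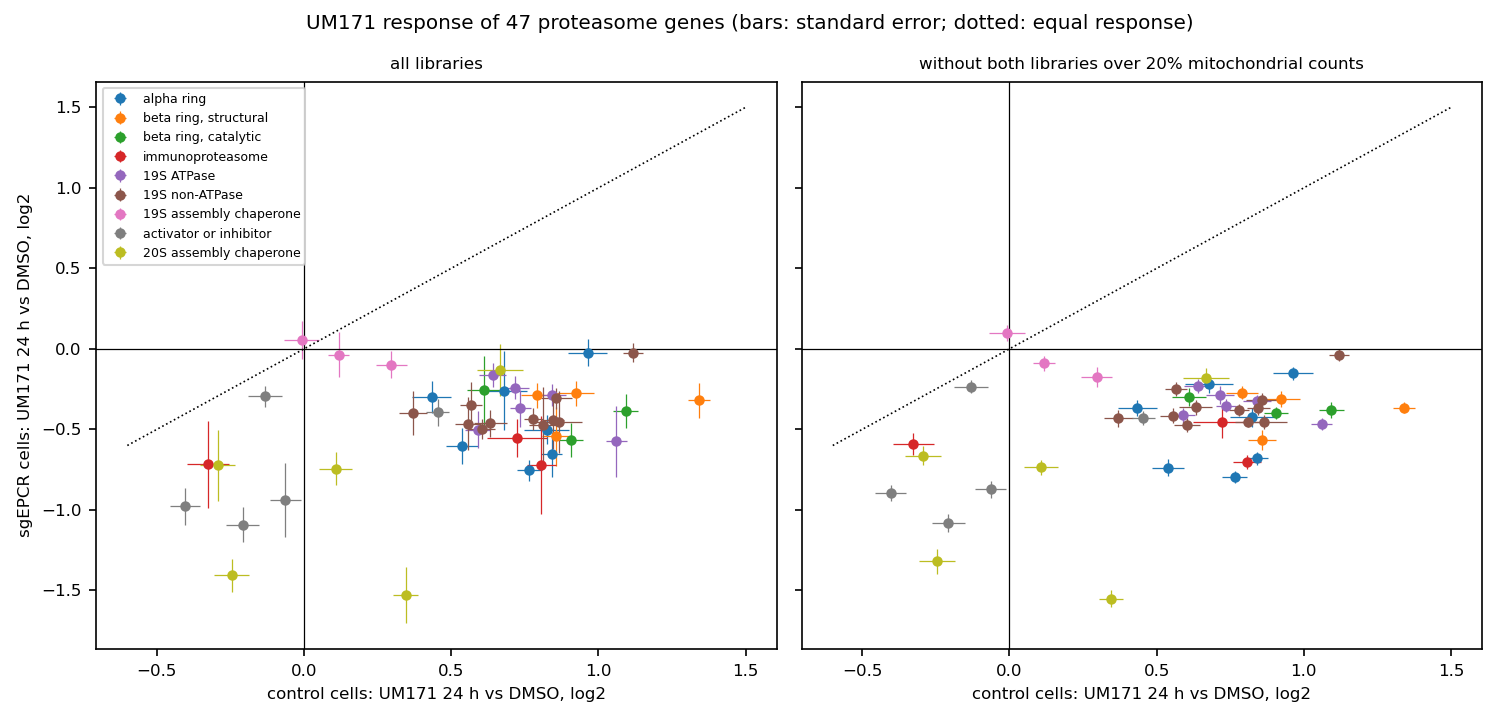
Log2 fold change after 24 h of UM171 in control cells (horizontal axis) and in sgEPCR cells (vertical axis) for the 47 tested members, colored by class, with all libraries (left) and without the 2 libraries with over 20% mitochondrial counts (right). Bars are standard errors and the dotted line marks equal responses. Core and 19S genes lie right of zero and below it, PSMB2 at 1.34 and -0.32 with all libraries, and PSMG1 is lowest at -1.53.

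Of 11 partner genes of the proteasome 6 were higher and 2 lower at 24 h, where 34.9% and 34.8% of all genes were, with a median log2 change of 0.22. The small 19S subunit gene SEM1 had a log2 change of 0.54 (SE 0.0645), the ubiquitin receptor ADRM1 0.46 (SE 0.0531) and the deubiquitinase USP14 0.28 (SE 0.0432), and at 72 h these were -0.24, -0.54 and -0.72. Of 7 genes of NFE2L1 and its processing, 4 were higher and 2 lower at 24 h, beside the same 34.9% and 34.8%, and NFE2L1 and NGLY1 passed narrowly (NGLY1 adjusted p = 0.049). NFE2L1 itself averaged 84.1 TPM in DMSO, 94.0 TPM at 24 h and 160 TPM at 72 h, log2 changes of 0.09 (SE 0.0375, adjusted p = 0.034) and 0.78 (SE 0.0374, adjusted p = 4.2e-12). At 72 h the NFE2L1 transcript was higher and 33 of the 47 members were lower, and its part in the members' changes was not tested. VCP, the ATPase that extracts proteins from membranes, rose by 0.70 at 24 h, and DDI2, the protease that cleaves NFE2L1, fell by 0.67 at 24 h and by 1.21 at 72 h on the log2 scale.

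Of 10 ubiquitin and shuttle genes 6 were higher and 3 lower at 24 h, against 34.9% and 34.8% of all genes. The polyubiquitin gene UBB had the largest change, 0.87 (SE 0.0479). Of 8 genes that supply peptides to MHC class I, 5 were higher and 2 lower at 24 h, against 34.9% and 34.8%, and 6 were higher and 0 lower at 72 h, against 38.8% and 36.8%. ERAP2, an aminopeptidase that trims the peptides, averaged 2.30 TPM in DMSO and 12.3 TPM at 24 h, a log2 change of 2.502 (SE 0.0655). IRF1, an interferon-induced transcription factor, had the lowest 24 h change of this list, -0.46 (SE 0.0751). TAP1, the peptide transporter gene next to PSMB9, had log2 changes of -0.10 (SE 0.1, adjusted p = 0.39) at 24 h and -0.11 (SE 0.101, adjusted p = 0.34) at 72 h. These bulk data cannot tell fewer cells of one kind from less RNA per cell.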

How the data were processed

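Polyadenylated RNA of 21 OCI-AML5 libraries was sequenced with a stranded kit. The authors deposited 1 table per library with RSEM expected counts (estimated read counts per gene, not normalized) and TPM (scaled for transcript length and depth by RSEM). The submitters' processing notes name CASAVA 1.8.2, Trimmomatic 0.35, STAR 2.5.1b, RSEM 1.2.28 and GRCh38; the strand setting of the counting is not given in the sources used here. TPM holds no depth, and a change in transcript lengths moves TPM against counts.

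Samples were grouped by their labels. Expected counts were rounded and tested with edgeR 4.0.16 (filterByExpr, TMM scaling, quasi-likelihood test) in R 4.3.3. Fits were made of the 15 libraries of the time course (16575 genes) and of the 12 libraries of the genotype comparison (15901 genes). Each tool was tested on simulated counts with a spread near that of the time course. The common coefficient of variation was 0.0564 in the time course fit and 0.187 in the genotype fit, so the simulation does not cover the spread of the latter. P-values were adjusted by Benjamini-Hochberg over all genes tested. Shares of TPM were compared by two-sided exact permutation tests. DESeq2 1.42.0, limma 3.58.1 on log2(TPM + 1), other scalings and filters, GC offsets, a replicate block and left-out libraries were alternatives. GC offsets and the fit without both libraries of high mitochondrial share were chosen after seeing the data. Values per library were printed for the catalytic, immunoproteasome, PSME1, PSME2 and POMP genes and for the members with the highest and lowest 24 h change of each class, and other members were named after their values were seen. The members and gene lists were chosen with earlier results of these data known. Symbols matched 57392 of 58174 gene identifiers. Of 45 pseudogenes of members, 2 exceeded 100 counts in a library. Promoters are from RefSeq.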

Additional observations from a re-analysis of the deposited data

Results flagged for a closer look

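The response to UM171 differed between sgEPCR and control cells by the test of the difference itself, the interaction term of the edgeR quasi-likelihood test. It was lower in sgEPCR cells for 42 of 47 members. Among members described above that passed, the log2 difference (sgEPCR response minus control response) was -0.99 for PSMA1, -0.74 for PSMA5, -1.67 for PSMB2 and -1.08 for PSMB4. For the constitutive catalytic genes it was -1.48 for PSMB6, -1.48 for PSMB7 and -0.87 for PSMB5, and for the immunoproteasome genes -1.29 for PSMB9 and -1.53 for PSMB8. The immunoproteasome gene PSMB10 had -0.40 and did not pass, and PSMD9 and PSMG3 did not pass either. In the 19S particle the log2 difference was -1.64 for PSMC3, -1.10 for PSMC4, -1.15 for PSMD1 and -0.77 for PSMD12. For the activators it was -0.58 for PSME1, -0.89 for PSME2 and -0.85 for PSME4, and for the assembly factors -0.40 for PSMD10 and -0.80 for POMP. Without the 2 libraries of high mitochondrial share the response was lower for 45 members, with -1.11 for PSMA1, -0.80 for PSMA5, -1.701 for PSMB2, -1.06 for PSMB4, -1.47 for PSMB6, -1.30 for PSMB7, -0.90 for PSMB5, -1.17 for PSMB9, -1.50 for PSMB8 and -0.26 for PSMB10. It was then -1.52 for PSMC3, -0.9998 for PSMC4, -1.15 for PSMD1, -0.80 for PSMD12, -0.49 for PSME1, -0.87 for PSME2, -0.88 for PSME4, -0.47 for PSMD10 and -0.84 for POMP. The control DMSO libraries are labelled 72 h and the other libraries in this test 24 h, and 2 sgEPCR libraries had over 20% mitochondrial counts, so genotype and labelled time cannot be told apart in these differences.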

How the results depend on the processing

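Each p rests on 3 libraries a group of 24.3 to 51.5 M counts. PSMA8 and PSMB11, with at most 1 and 2 counts in a library, were not tested. Of 663 recomputed counts, shares and sums, 597 stayed within the limits set for them, and the cause of the others was not tested except where the alternative has stricter limits by construction.

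At 6 h, the 2 higher members became 1 with DESeq2, with no filter and with all 21 libraries in 1 fit, 4 with upper quartile and 6 with total count scaling, and 1 to 2 when single libraries were left out. The 40 lower members at 6 h became 11 with limma, 22 with total counts and 26 with all 21 libraries, and the share of higher among all called genes went from 51.2% to 75.3% with total counts, 74.9% with limma and 63.3% with upper quartile scaling. At 24 h the 5 lower members became 1 in the fit of 12 libraries and with limma, and 2 with all 21 libraries. At 72 h the 5 higher members became 3 with no filter and 1 with all 21 libraries. In sgEPCR cells the 32 lower members became 1 with limma, 21 with upper quartile and 11 with total count scaling, and 1 member was higher with GC offsets, with and without the block. Between genotypes in DMSO the 34 higher members became 2 with limma and 14 with total counts, and in UM171 the 34 lower ones 3 and 18. The 42 lower responses became 5 with limma, and 1 was higher with GC offsets. Total counts moved the share of higher among all called genes from 51.8% to 69.2% for the response of sgEPCR cells, from 51.8% to 26.9% between genotypes in DMSO and from 48.7% to 59.7% for the difference of responses. An adjusted p under 0.0001 with over 2-fold left 0 higher and 0 lower members at 6 h and 48 h, 4 and 0 at 24 h, 1 and 1 at 72 h, 0 and 21 at 72 h against 24 h, 3 lower in sgEPCR cells, 2 higher between genotypes in DMSO, 0 lower in UM171 and 14 lower for the difference.

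The replicate numbers did not pair the libraries, with correlations of same-numbered deviations from -0.299 to 0.254 in the time course and of -0.859, -0.861 and 0.770 between the sgEPCR groups, which hold both libraries of high mitochondrial share. The replicate block gave 38 higher and 5 lower members at 24 h, as without it, and 20 lower in place of 32 in sgEPCR cells. It could not be fitted between genotypes.

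With TMM-scaled counts in place of TPM the class sums over DMSO at 6 h were 0.815 for the core, 1.02 for the immunoproteasome, 0.781 for the 19S particle, 0.783 for the activators and 0.851 for the chaperones. At 72 h they were 0.776 for the 19S particle, 0.675 for the activators and 0.761 for the chaperones. At 24 h the activators were at 1.01, against 0.9675 in TPM. In sgEPCR DMSO the activators were at 1.25 and the chaperones at 1.36, against 0.887 and 1.02 in TPM. The activators thus changed sides of DMSO with the unit in both groups. Without both libraries of high mitochondrial share the TPM ratios in sgEPCR DMSO were 1.08 and 1.21. The beta 1 share of sgEPCR against control cells in UM171 turned from 0.245 to -0.232 points without both libraries of high mitochondrial share. With single libraries left out it ranged from -0.232 to 0.4998, from -1.65 to 0.291 between genotypes in DMSO and from -1.83 to 0.1105 for the response of sgEPCR cells.

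Of the genes recomputed under every alternative, those whose log2 change turned sign had not passed the test, except PSMB2. Counts and mean TPM of all members were also set side by side for the UM171 times against DMSO in control cells. Among members that had passed in counts, they went opposite ways for PSMG4 at 24 h and 72 h. At 6 h they did so for PSMA4, PSMC5, PSMD4, PSME1 and PSMG3. Between genotypes in DMSO, PSME4 and PSMG2 passed as higher in counts, by 0.44 and 0.37. Their mean TPM in sgEPCR DMSO was 0.9963 and 0.9348 times that of control DMSO, with 1 library far below the others. From lowest to highest, PSME4 was at 20.4, 42.7 and 47 TPM there, against 35.0 to 40.2 TPM in control DMSO. PSMG2 was at 54.4, 102 and 103.9 TPM, against 92.1 to 93.3 TPM. Without both libraries of high mitochondrial share the log2 differences in counts were 0.38 and 0.26. In sgEPCR cells PSMA1 became 0.25 with limma, 0.087 with upper quartile, 0.11 with total counts and 0.039 with at least 10 counts, and PSMD1 0.17, 0.089, 0.14 and 0.042. PSMD10 became 0.14, 0.014 and 0.0555 with the first 3 of these, POMP 0.12 with limma and 0.035 with total counts, PSMB2 0.016 and PSMB5 0.054 with limma. PSMB7 at 72 h became 0.0041 with upper quartile and 0.011 with total counts. PSMD9 at 24 h became 0.023 with total counts, 0.019 with at least 10 counts, 0.0043 with no filter, 0.042 with GC offsets and 0.0385 with the block and GC offsets. With single libraries left out, PSMA1 in sgEPCR cells ranged from -0.12 to 0.0275, POMP from -0.33 to 0.0155, PSMD9 from -0.036 to 0.18, its difference of responses from -0.034 to 0.18, and PSMD9 at 24 h from -0.015 to 0.0042.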
